A study of Mus musculus with 4 samples.

Results

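Active enhancers with a NANOG peak and a published OCT4 site nearby were examined for NANOG occupancy before and after OCT4 was removed from mouse embryonic stem cells (ESCs). An enhancer belonged to this set if its NANOG peak carried the active enhancer flag, had an OCT4 site within 1 kb, did not carry the active promoter flag, and reached 0.9 RPKM in uninduced or IAA-treated cells. RPKM is a read count per window, scaled for window length and for the depth of its library. Of 21066 windows in the series 950 met these criteria, and of the 16608 windows that reached 0.9 RPKM in either condition, called bound peaks here, the 950 co-bound enhancers are a subset. Before the threshold 1004 windows carried the flags, so 54 were left out for low signal.

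NANOG was immunoprecipitated from ZHBT-O4AID ESCs, a 129SV line with the genotype Oct4-/-, TetOFF Oct4, CAG Oct4AID and CAG Tir1, grown with PD03, Chiron and LIF. The TetOFF transgene was silenced by doxycycline in all cells, so that all OCT4 came from the CAG-driven fusion to an auxin-inducible degron, which the TIR1 protein directs to the proteasome when auxin is present. Uninduced cells gave 2 libraries and cells given indole-3-acetic acid (IAA), an auxin, at 500 μM for 1.5 h gave 2 libraries, described by the study as independent immunoprecipitations of this line. No separate cultures are named, so p-values rest only on these libraries and measure no spread between cultures. Cells that lack the degron and were given IAA were not analysed here.

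OCT4, a POU-domain protein encoded by Pou5f1, binds the octamer and often pairs with SOX2 at a composite of a SOX motif and an octamer. NANOG is a homeodomain protein that occupies many of the same enhancers, among them those of genes that hold ESCs in the naive state. Active enhancers are commonly recognised by acetylated histone H3 at lysine 27. The flags used here come from published chromatin and OCT4 data on other ESC lines, not from the libraries analysed. The names co-bound and OCT4-free thus refer to published OCT4 sites, and OCT4 binding at these windows was not measured in the libraries used here.

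The rule used measured values as well as flags. The members were chosen by their RPKM in these same libraries, so changes over the members are a description without a test. The threshold was reached in both conditions by 935 of the 950, in IAA alone by 12 and in uninduced cells alone by 3. Just inside it lay a window near Gm10139 at 0.295 RPKM uninduced and 0.916 RPKM in IAA, and a window near Psg22 at 0.641 and 0.916 RPKM. Just outside lay a window near Rpia at 0.885 and 0.771 RPKM and a window near Pid1 at 0.661 and 0.890 RPKM.

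The DNA under a few of these enhancers is shown first, because the members are split by octamer content further on. Each stretch is the middle of a 351 bp window on the plus strand, RefSeq sequence of GRCm38 (mm10). Capitals in the first 4 mark octamer matches with at most 1 mismatch, and capitals in the last 3 mark a SOX-octamer composite with at most 2 mismatches. The Sox2 (chr3:34745417-34745567) and Nanog (chr6:122702542-122702692) enhancers were the strongest near those genes, and the Klf4 enhancer (chr4:55464467-55464617) was among the 5 strongest of all members. The Chd9 enhancer (chr8:90851685-90851835) had the largest fall. The Lifr (chr15:7115775-7115925), Cdc42ep3 (chr17:79342764-79342914) and Ranbp17 (chr11:33527426-33527576) enhancers are examples of the composite, chosen after their values were seen.
Sox2: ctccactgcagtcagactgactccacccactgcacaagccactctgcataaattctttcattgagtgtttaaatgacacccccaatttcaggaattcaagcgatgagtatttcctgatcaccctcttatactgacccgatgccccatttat
Nanog: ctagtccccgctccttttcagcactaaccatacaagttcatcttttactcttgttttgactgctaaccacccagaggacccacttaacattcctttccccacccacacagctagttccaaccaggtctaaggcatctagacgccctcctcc
Klf4: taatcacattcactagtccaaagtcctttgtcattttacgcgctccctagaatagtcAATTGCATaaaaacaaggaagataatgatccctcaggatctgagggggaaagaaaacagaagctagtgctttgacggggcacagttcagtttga
Chd9: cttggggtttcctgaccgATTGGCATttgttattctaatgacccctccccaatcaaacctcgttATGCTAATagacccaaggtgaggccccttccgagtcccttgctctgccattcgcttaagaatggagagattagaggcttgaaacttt
Lifr: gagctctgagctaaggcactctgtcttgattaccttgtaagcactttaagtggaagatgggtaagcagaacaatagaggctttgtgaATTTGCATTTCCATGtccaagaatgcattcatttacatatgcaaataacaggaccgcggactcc
Cdc42ep3: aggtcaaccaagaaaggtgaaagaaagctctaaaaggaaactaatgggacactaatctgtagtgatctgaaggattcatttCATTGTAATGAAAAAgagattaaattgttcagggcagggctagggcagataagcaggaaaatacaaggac
Ranbp17: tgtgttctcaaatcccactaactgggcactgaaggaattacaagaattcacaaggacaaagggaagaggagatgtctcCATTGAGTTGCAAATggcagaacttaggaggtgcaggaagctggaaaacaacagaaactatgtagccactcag
The Sox2 and Nanog stretches hold no octamer match, the Chd9 stretch holds 2, and the full Lifr window holds 2 exact octamers.

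Co-bound enhancers lay mostly away from genes' starts, a position that the rule favours by leaving out windows with the active promoter flag. Within 2.5 kb of a transcript start of any gene lay 209 of the 950. By GENCODE annotation (release M21) of the window centre, 473 were intergenic (49.8%), 431 intronic (45.4%) and 46 exonic (4.84%). The median distance to the nearest transcript start of a protein-coding gene was 15829 bp, and 756 such genes were nearest to at least 1 member. Most of these genes, 613, had a single member, while Klf9, which encodes a Krüppel-like factor, had 6, and Sox2, Rbpms, Dlc1 and Qk had 5 each. By the distance customarily used to stitch enhancers into super-enhancers, 207 members were clustered with another flagged co-bound enhancer and 743 were isolated, and 0 overlapped another NANOG window. The repressed chromatin flag was also carried by 61.

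The recovered read counts set the precision. The smallest RPKM in each library is worth 1 read, and the libraries held 8236968 and 11674801 reads (uninduced 1 and 2) and 19634763 and 5406307 reads (IAA 1 and 2). The median co-bound enhancer held 9, 19, 33 and 10 reads in that order. Members at the 1-read level, below which nothing is recorded, numbered 15, 2, 0 and 17, so a fall at a weak member could be hidden most often in IAA 2.

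NANOG signal at co-bound enhancers was higher after IAA, by less than at bound peaks in general. The median member had 3.11 RPKM in uninduced 1, 4.64 in uninduced 2, 4.79 in IAA 1 and 5.27 in IAA 2. Both IAA medians lay above both uninduced medians, but uninduced 2 lay much nearer to the IAA libraries than to uninduced 1. On the scale of log2(RPKM + 0.1), which understates changes of low values, the median change per member (IAA mean minus uninduced mean) was 0.48, with quartiles of 0.06 and 0.91, against 0.76 over all bound peaks. Of the 950 members 744 (78.3%) had a higher mean after IAA, against 85.8% of all bound peaks. Between single libraries of the 2 conditions the change was 0.20 to 0.78 (4 pairs), while uninduced 2 exceeded uninduced 1 by 0.56 and IAA 2 exceeded IAA 1 by 0.09, so the rise over uninduced 2 was smaller than the gap between the uninduced libraries. Without uninduced 1 the median change was 0.22, and without uninduced 2 it was 0.73. Quantile normalization, which gives every library the same distribution, shifted the median change of all bound peaks by -0.70, to 0.05, and that of the members to -0.22. Whether NANOG signal rose or fell at the typical member thus depended on the scaling, but the members lay below the bound peaks under both scalings.

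**Figure D1:**
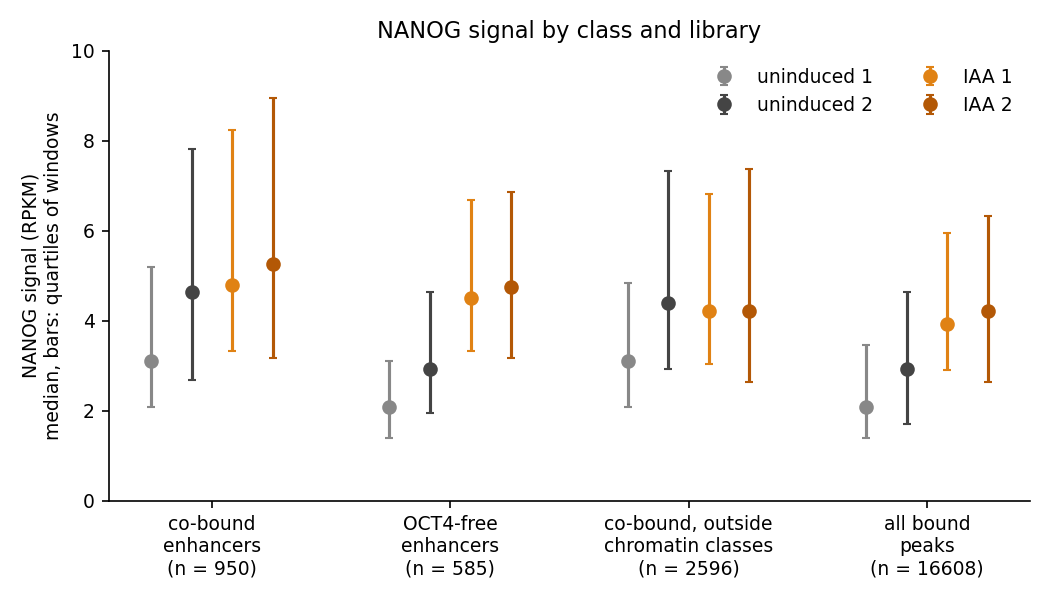
NANOG signal (RPKM, linear axis) in each of the 4 libraries for co-bound enhancers, OCT4-free enhancers, co-bound peaks outside the chromatin classes and all bound peaks. Points are medians over windows and bars run from the lower to the upper quartile of windows, not replicate error. In uninduced cells the co-bound enhancers (3.11 and 4.64) sit above the OCT4-free enhancers (2.08 and 2.93), and after IAA the classes lie close (4.79 and 5.27 against 4.50 and 4.74).

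The comparison with active enhancers that have no OCT4 site asks whether OCT4 co-binding marks a different response among enhancers of one chromatin class. There were 585 such OCT4-free enhancers among bound peaks, and their median change was 0.88, with 92.3% higher after IAA. The test used every flagged window whatever its RPKM (1004 with and 631 without an OCT4 site), so that the RPKM threshold did not choose them, although the windows themselves are peaks called on both conditions together. The median log2 signal of co-bound enhancers exceeded that of OCT4-free enhancers by 0.56 and 0.69 in uninduced 1 and 2, and by 0.09 and 0.17 in IAA 1 and 2. The difference was thus 0.63 ± 0.09 (SD, n = 2) in uninduced cells and 0.13 ± 0.05 (SD, n = 2) after IAA, and the groups did not overlap. The change was -0.50, against a pooled SD between replicates of 0.0733. Library medians fall on whole reads, and 1 read is worth 0.527 RPKM in IAA 2 and 0.145 RPKM in IAA 1. These SDs therefore depend on read steps and depth as well as on replicate spread, and the change cannot be read as a multiple of them. The two-sided exact permutation test over libraries gave p = 0.333, the smallest value that 2 against 2 libraries allow, and 0.583 after Benjamini-Hochberg adjustment over 7 comparisons.

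Among bound windows alone, co-bound enhancers changed less than OCT4-free enhancers in each of the 4 pairs of libraries between conditions. Taken window by window, this difference was -0.43 to -0.36, against 0.09 between the uninduced and 0.07 between the IAA libraries. These values are a description, since the threshold used values of these libraries and the 4 pairs share the same 4 libraries. GC content also moved with the change: Spearman's rho across members was 0.27, a description over windows of the same 4 libraries, and it ranged from 0.17 to 0.32 over the 4 pairs between conditions, against -0.02 between the uninduced and -0.12 between the IAA libraries. The median GC content was 46.7% at co-bound and 49.6% at OCT4-free enhancers, with 46.2% over all bound peaks. The bound windows of both enhancer classes were also ranked by GC content and divided into 4 bins of equal size. Co-bound enhancers changed less in each bin, by -0.59, -0.33, -0.19 and -0.31 from the lowest to the highest GC content. The part of GC content in the remaining difference was not tested.

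**Figure D2:**
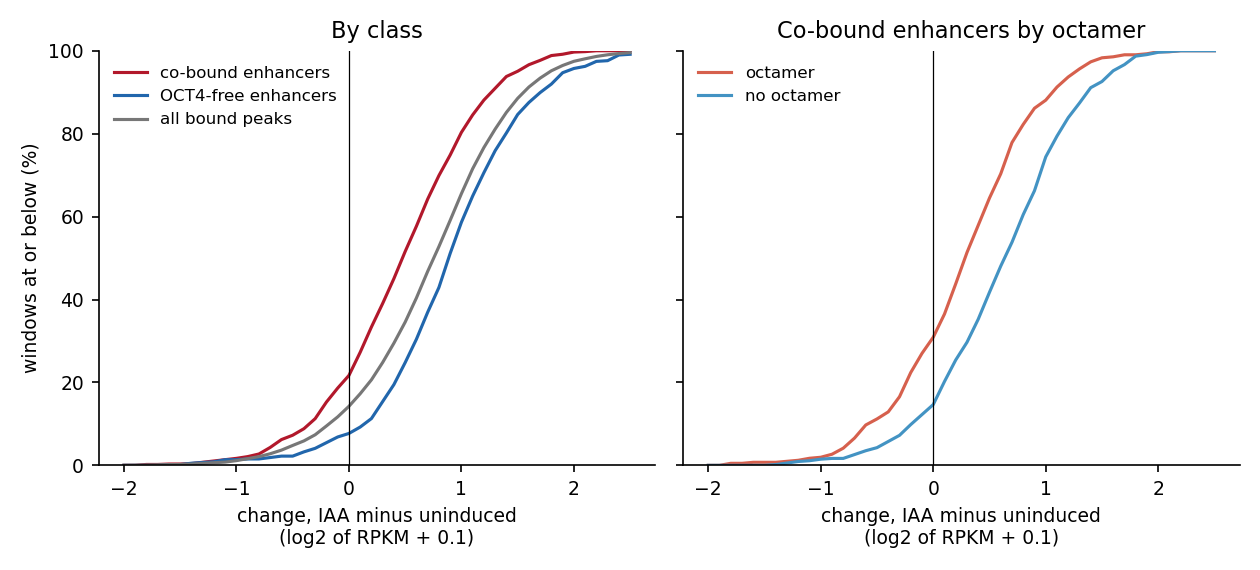
Cumulative share of windows (%) by change in NANOG signal (IAA minus uninduced, log2 of RPKM + 0.1), at left for co-bound enhancers, OCT4-free enhancers and all bound peaks, and at right for co-bound enhancers with and without an octamer match. The curve of co-bound enhancers (median 0.48) lies left of that of all bound peaks (0.76) and of OCT4-free enhancers (0.88), and the curve with an octamer (0.27) lies left of that without (0.64).

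Co-bound peaks outside the promoter, enhancer and repressed classes started from a similar level. Over all flagged windows the library medians of co-bound enhancers and of these 2681 peaks were equal in uninduced 1 and in uninduced 2, and the enhancers were higher by 0.09 and 0.17 in IAA 1 and 2. The difference grew by 0.13 (exact permutation test over libraries, two-sided, p = 0.333, the smallest possible). With 2 or more reads in every library it grew by 0.05, and with bound windows alone by 0.21. Library medians move in steps of whole reads, and an equal median here means the same number of reads. Among the 2596 of these peaks that were bound, the median change was 0.34, against 0.48 at co-bound enhancers. Their medians were 3.11 RPKM in uninduced 1 and 4.39 RPKM in uninduced 2, against 3.11 and 4.64 RPKM at co-bound enhancers.

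Single enhancers were tested with limma on log2(RPKM + 0.1), fitted over all bound peaks with Benjamini-Hochberg adjustment. The SE of an enhancer came mainly from a trend of variance on level over all bound peaks, and little from its own libraries. It was 0.52 at Zfhx2, with 0.346 and 5.37 RPKM uninduced, and 0.60 at Nr5a2, with 1.04 and 0.976 RPKM. The SE and adjusted p thus do not measure the replicate spread of the single enhancer. Of the members 82 (8.63%) were called higher, against 15.0% of all bound peaks, and 12 (1.26%) were called lower, against 0.337%. Among OCT4-free enhancers 122 (20.9%) were called higher and 1 lower. The IAA libraries were both above the uninduced ones at 456 members (48.0%, against 60.5% of all bound peaks) and both below them at 75 (7.89%, against 4.23%). By each of these counts the share of rises was smaller and the share of falls larger than over all bound peaks. The calls were lost without IAA 1 or without IAA 2, in fits where the spread between replicates came from the uninduced pair alone. The median change of the members was then 0.52 and 0.46. Without uninduced 1 there were 52 higher (5.47%, against 10.5% of all bound peaks in that fit) and 24 lower (2.53%, against 0.843%). Without uninduced 2 there were 331 higher (34.8%, against 40.7%) and 11 lower (1.16%, against 0.361%). The counts were 0 higher and 1 lower after quantile normalization, and 0 and 0 without the variance trend (36 and 169, and 157 and 14, at an unadjusted p under 0.05). Voom on the recovered reads gave 83 and 10.

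The octamer split the members. The letters ATGCAAAT were searched on both strands of every window. With at most 1 mismatch the octamer was found in 411 of 950 members (43.3%), in 29.8% of all 21066 windows and in 21.7% of OCT4-free enhancers, and the exact octamer in 65 members (6.84%, against 3.71% of all windows). Members with the octamer changed by a median of 0.27 and the 539 without it by 0.64. Of the 75 members lower in both IAA libraries, 49 (65.3%) held the octamer, as did 143 of the 456 (31.4%) that were higher in both. The exact octamer (median change 0.15) and the composite (46 members, 4.84%, against 1.45% of all windows; median change 0.18) gave lower values still, and 1 OCT4-free enhancer held the composite. The composite was CATTGT followed by 0 or 1 base and ATGCAAAT, with at most 2 mismatches that can both fall in the octamer part. A composite can thus lie in a window counted as without the octamer, as at Cdc42ep3.

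**Figure D3:**
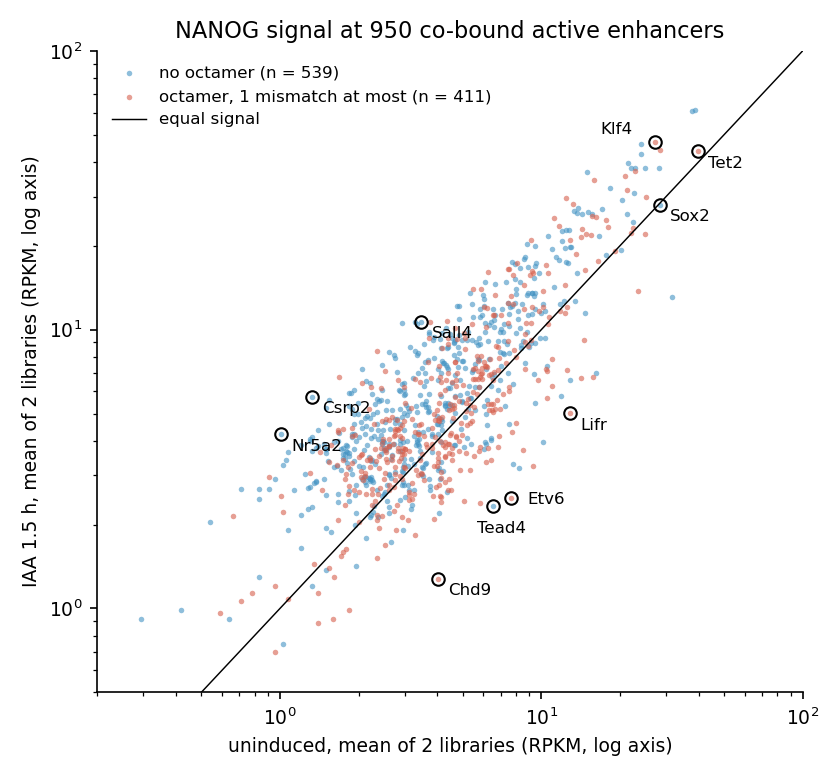
NANOG signal at each of the 950 co-bound enhancers, uninduced mean (x) against IAA mean (y) of 2 libraries each, both in RPKM on log axes, coloured by octamer content. The line marks equal signal, and circles mark enhancers named in the text by their nearest gene. Most points lie above the line, while Lifr, Tead4, Etv6 and Chd9 lie below it and Sox2 lies on it.

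Over library medians the octamer result depended on which windows were kept. The planned comparison of all 1004 flagged windows, 88 with the exact octamer against 916 without, gave differences of -0.56 and -0.83 without IAA and -0.56 and -0.72 with it, a change of 0.06 (exact permutation test, two-sided, p = 0.667). This is less than the pooled SD between replicates of 0.157. Of the 54 flagged windows under the threshold 23 held the exact octamer, 36 had 1 read in every library, and a median of 93.7% of their bases were repeat-masked. With bound windows alone the change was -0.22, and with at least 2 reads in every library it was -0.15. Both filters use values of these libraries, so these are descriptions without a test. With at most 1 mismatch (455 flagged windows against 549) the differences were 0 and 0 without IAA and -0.32 and -0.32 with it, again at the smallest p of the exact permutation test (0.333). The equal values reflect medians that fall on whole reads.

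The same split was made among the OCT4-free enhancers, a comparison added after the data were seen. With at most 1 mismatch the library medians of 135 windows with and 496 without the octamer differed by 0 and 0.23 without IAA and by 0.14 and 0.17 with it, a change of 0.04 (exact permutation test, two-sided, p = 1). The change at co-bound minus that at OCT4-free enhancers was -0.35 (exact permutation test, two-sided, p = 0.333, the smallest possible, and 0.583 after adjustment). Window by window the medians were 0.79 with and 0.92 without the octamer at bound OCT4-free enhancers, and 0.16 and 0.53 at co-bound peaks outside the classes. Among members the octamer difference was -0.37 to -0.25 over the 4 pairs between conditions, and -0.06 and 0.03 within conditions.

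Octamer matches were densest near the summits. In members they numbered 12.6 per 100 windows in the central 50 bp and 4.95 and 6.42 in the outermost bins, against 4.79 and 2.56 and 3.25 at OCT4-free enhancers. Members whose nearest match was within 50 bp of the centre changed by 0.26 (198), those at 50 to 100 bp by 0.19 (108) and those farther out by 0.39 (105). The octamer is AT-rich, and GC content was 45.9% at members with it and 47.6% at those without. In 4 equal bins from low to high GC content the members changed by 0.23, 0.47, 0.59 and 0.67. Within these bins those with the octamer changed by 0.06, 0.24, 0.47 and 0.35 and those without by 0.42, 0.56, 0.71 and 0.86. Within 4 equal bins of signal level, from low to high, the values were 0.24, 0.26, 0.22 and 0.48 with the octamer and 0.79, 0.60, 0.57 and 0.64 without it.

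**Figure D4:**
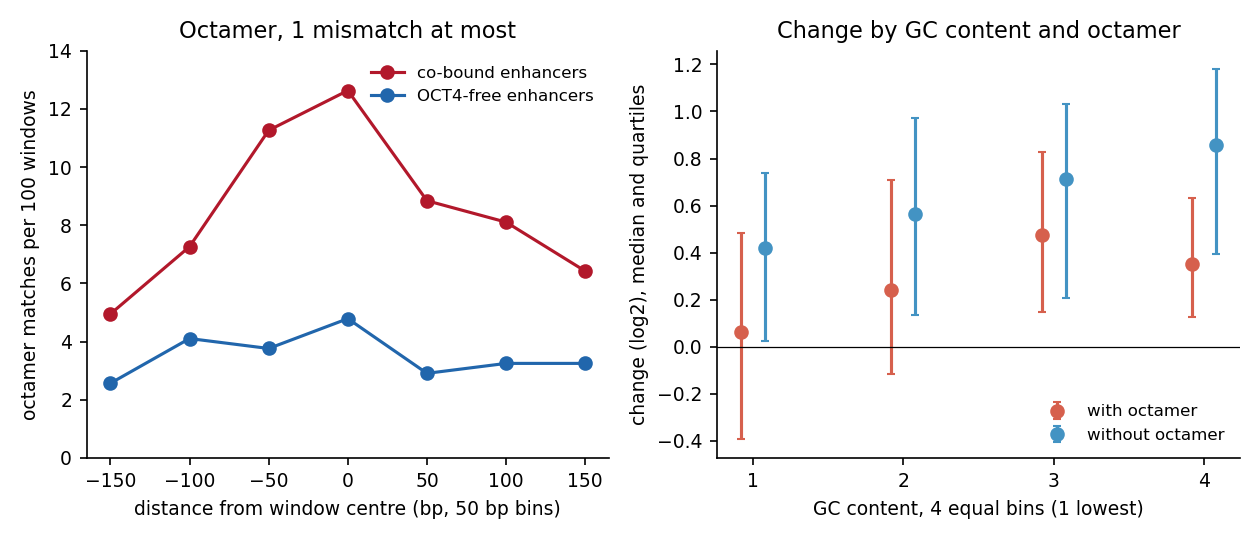
At left, octamer matches with at most 1 mismatch per 100 windows by distance from the window centre (bp, 50 bp bins) at co-bound and OCT4-free enhancers, with 12.6 and 4.79 in the central bin. At right, median change (log2, bars: quartiles over windows) of members with and without the octamer in 4 equal bins of GC content, where the value with the octamer is the lower in all 4.

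The NANOG homeodomain core TAATGG was in 163 members (17.2%, against 19.2% of all windows), with median changes of 0.49 with and 0.48 without it. The ESRRB motif TCAAGGTCA was in 56 (5.89%, against 3.34%), with 0.70 and 0.47. The KLF motif CCACACCC was in 66 (6.95%, against 5.77%), with 0.61 and 0.48. The SOX motif CATTGT was in 299 (31.5%, against 33.2%), with 0.54 and 0.46. Each of these 4 differences was smaller than that between members with and without the octamer (0.27 and 0.64). Clustered members changed by 0.52 and isolated ones by 0.48, and over all flagged windows the change of their difference was -0.02 (exact permutation test, two-sided, p = 1), which took the other sign with bound windows alone (0.13). Intergenic, intronic and exonic members changed by 0.48, 0.48 and 0.54, and Spearman's rho of level with change was 0.002 across members. The 61 with the repressed flag changed by 0.29, with a median of 76.6% repeat-masked bases.

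Genes of the pluripotency network and of neighbouring pathways were taken from 8 lists with 63 genes, of which 27 were nearest to at least 1 member. These lists were chosen with earlier results of the data known. Their 50 members changed by a median of 0.58, against 0.76 over all bound peaks, and 5 were called higher (10%, against 15.0% of all bound peaks) and 2 lower (4%, against 0.337%). The IAA libraries were both above the uninduced ones at 29 (58.0%, against 60.5%) and both below at 3 (6%, against 4.23%). Quantile normalization turned the sign at 11 of the 41 enhancers named here, among them the strongest of Esrrb, Tfcp2l1, Klf5, Fgf4, Tet2, Mycn and Etv5. Without IAA 1 or without IAA 2 all 14 calls among the named enhancers were lost. Leaving out uninduced 1 lost 3 of them, and leaving out uninduced 2 gained 13 more. The strongest member of each gene is described below, with RPKM given in the order uninduced 1, uninduced 2, IAA 1, IAA 2.

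Among core pluripotency factors 3 of 4 genes had members, 7 in all, with 1 called higher (14.3%, against 15.0% of all bound peaks) and 0 lower (median change 0.45). The strongest Sox2 enhancer lay 95087 bp downstream of the gene, which encodes the partner of OCT4 on the composite motif, and had 26.6, 30.0, 29.7 and 26.3 RPKM. These libraries overlapped, and the change was -0.01 ± 0.48 (SE). The other 4 Sox2 members changed by 0.25 to 0.70, all below the bound median. The Nanog enhancer, 4872 bp upstream, had 5.19, 9.76, 13.3 and 11.6 RPKM, a change of 0.80 ± 0.42 (limma, adjusted p = 0.164). Without uninduced 1 this change was 0.35 (limma, adjusted p = 0.516), and without uninduced 2 it was 1.25 and was called (limma, adjusted p = 0.000956). At the Sall4 enhancer, 1582 bp upstream of a zinc-finger factor gene, signal was 2.08, 4.88, 7.11 and 14.2 RPKM, and it rose by 1.63 ± 0.44 (limma, adjusted p = 0.00809). At the Nanog and Sall4 enhancers the IAA libraries were both above the uninduced ones, and no member was nearest to Pou5f1.

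Of the 14 naive pluripotency genes 11 had members, 19 in all, of which 2 were called higher (10.5%, against 15.0% of all bound peaks) and 0 lower (against 0.337%). The median change of these 19 was 0.55, from -0.23 to 1.96. The Klf4 enhancer, 67228 bp downstream in an intron of Gm12510, had 21.4, 32.9, 40.3 and 53.8 RPKM. KLF4 is a Krüppel-like factor of the naive network, and the IAA libraries lay above the uninduced ones there. The Prdm14 enhancer, 42055 bp downstream of a gene for a PR-domain repressor, had 15.6, 26.1, 28.9 and 42.2 RPKM, also without overlap. The intronic Esrrb enhancer, of a nuclear receptor gene, had 17.6, 22.9, 27.4 and 31.1 RPKM. None of these 3 passed the test, at changes of 0.81, 0.79 and 0.54. The Tet2 enhancer, in an intron of a gene for a 5-methylcytosine oxidase, was among the strongest of all members at 33.9, 45.6, 38.3 and 49.0 RPKM, and its libraries overlapped (change 0.14 ± 0.52, SE).

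The calls among naive genes came from weaker enhancers. The intronic Nr5a2 enhancer, 752 bp from the start of a nuclear receptor gene, had 1.04, 0.976, 4.21 and 4.22 RPKM, which rest on 3, 4, 29 and 8 reads (limma, adjusted p = 0.0178). The Dppa3 enhancer had 2.77, 0.976, 6.09 and 5.80 RPKM (limma, adjusted p = 0.012). It lies 37230 bp from Dppa3, a maternal factor gene marking naive cells, and 43506 bp from the start of Nanog. Both rises were clear of the uninduced range, and their size depends on the pseudocount because few reads were present before IAA. The strongest members of Tbx3, Tet1, Tfcp2l1, Fgf4 and Klf5 changed by 1.00, 0.96, 0.55, 0.31 and 0.29, none past the threshold. No member was nearest to Klf2, Zfp42 or Nr0b1.

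**Figure D5:**
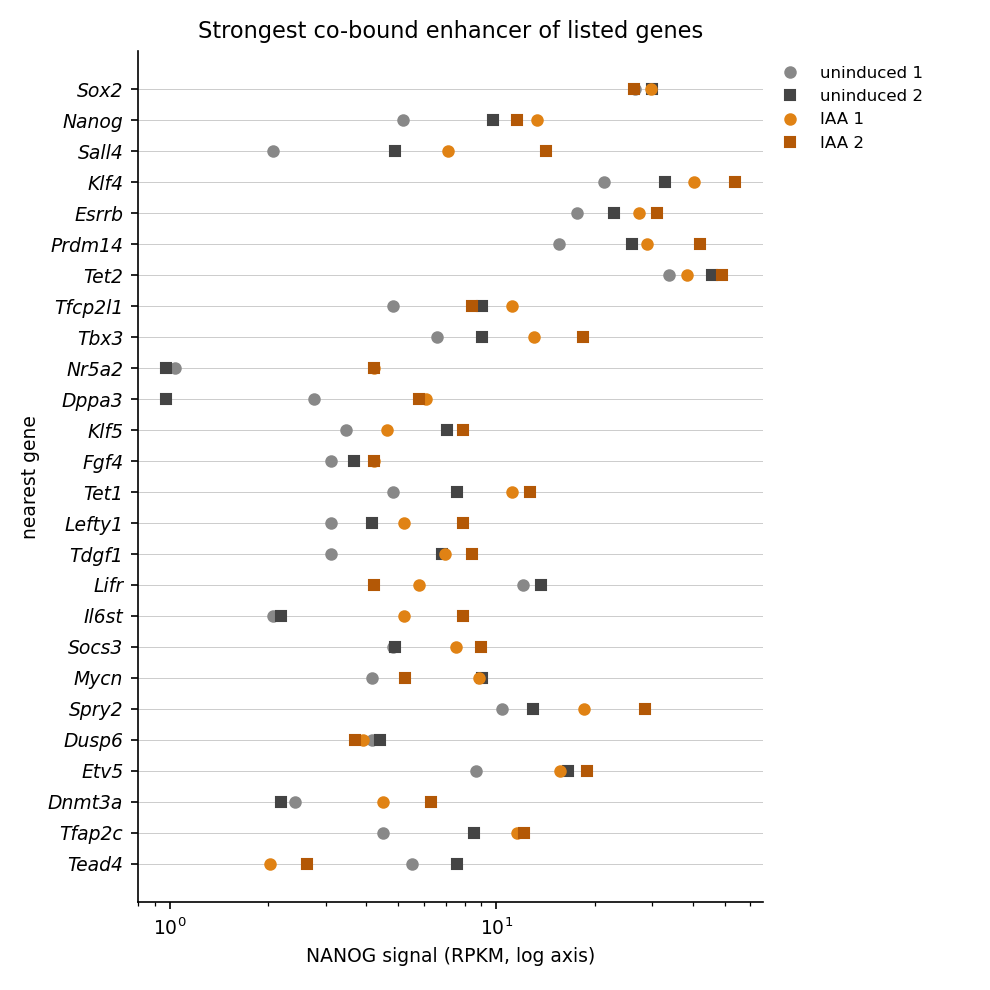
NANOG signal (RPKM, log axis) in each library at the strongest co-bound enhancer of listed genes, grey for uninduced and orange for IAA, circles for replicate 1 and squares for replicate 2. The IAA points lie to the left of the uninduced points at Lifr, Tead4 and Dusp6, overlap them at Sox2 and Tet2, and lie to the right at Klf4, Prdm14 and Nr5a2.

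The list of LIF, MYC and BMP response genes held a fall and rises: 4 of 9 genes had 7 members, of which 2 were called higher and 1 lower, against 15.0% and 0.337% of all bound peaks (median change 0.75). LIF, a cytokine in the medium, signals through LIFR and gp130, the product of Il6st. At the intronic Lifr enhancer (chr15:7115675-7116025), whose composite is printed above and whose full window holds 2 exact octamers, signal was 12.1, 13.7, 5.80 and 4.22 RPKM. Both IAA libraries lay under both uninduced ones, and signal fell by 1.36 ± 0.42 (SE) on the log2 scale (limma, adjusted p = 0.02), from 35 and 56 reads to 40 and 8 reads in libraries of unequal depth. The strongest Il6st enhancer, 47600 bp upstream, went the other way, with 2.08, 2.20, 5.22 and 7.90 RPKM and a rise of 1.55 ± 0.48 (limma, adjusted p = 0.0203). At Socs3, which encodes a feedback inhibitor of this pathway, the strongest of 3 members had 4.84, 4.88, 7.55 and 8.96 RPKM and did not pass. A weaker Socs3 member had 1.38, 1.71, 5.95 and 5.27 RPKM and was called higher (limma, adjusted p = 0.0133). The Mycn enhancer overlapped between conditions at 4.15, 9.03, 8.85 and 5.27 RPKM.

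Of the 5 Nodal pathway genes, whose ligand signals through SMAD proteins, Lefty1, an inhibitor, and Tdgf1, a co-receptor, had 3 members, all higher in both IAA libraries (against 60.5% of all bound peaks), with 0 called higher (against 15.0%) or lower. The strongest changed by 0.82 at Lefty1, from 0.53 to 1.12 with a library left out, and by 0.72 at Tdgf1. Without uninduced 1 the Tdgf1 change was 0.16, and without uninduced 2 it was 1.27 (limma, adjusted p = 0.00199). Both enhancers were called without uninduced 2. Of the 8 genes of the FGF and ERK pathway, which drives exit from the naive state and is blocked in part by PD03, Spry2, Dusp6 and Etv5 had 8 members, with 0 called higher (against 15.0%) or lower and a median change of 0.51. Dusp6, a gene for an ERK phosphatase, had an enhancer at 4.15, 4.39, 3.92 and 3.69 RPKM, while that of Spry2, a feedback inhibitor, had 10.4, 12.9, 18.6 and 28.5 RPKM. Of 8 formative and primed genes 2 had a member, and that of Dnmt3a, a DNA methyltransferase gene, changed by 1.18. No member was nearest to any of the 6 endoderm and mesoderm genes.

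Among 9 trophectoderm genes Tead4 and Tfap2c had 2 members each, 0 called higher and 1 lower (against 15.0% and 0.337% of all bound peaks). The median change of these 4 members was 0.55. The IAA libraries were both above the uninduced ones at 2 (50%, against 60.5%) and both below at 1 (25%, against 4.23%). The stronger of the 2 Tead4 enhancers, in an intron (chr6:128261534-128261884), had 5.53, 7.56, 2.03 and 2.63 RPKM. TEAD4 is a TEA-domain factor needed for the trophectoderm programme. The libraries did not overlap and signal fell by 1.44 ± 0.48 (SE) on the log2 scale (limma, adjusted p = 0.0274), although its window held no octamer match. The Tfap2c enhancer, of an AP-2 factor gene, had 4.50, 8.54, 11.6 and 12.1 RPKM and did not pass.

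The 5 strongest members were an enhancer 23830 bp upstream of Ranbp17, an enhancer 46154 bp upstream of Klf9, and those of Tet2, Klf4 and Stoml1. The Ranbp17 enhancer had 29.4, 48.1, 45.7 and 76.4 RPKM and the Klf9 enhancer 28.7, 46.9, 42.8 and 78.5 RPKM. Uninduced 2 exceeded IAA 1 in both, so neither was clear of overlap, and 0 of the 5 were called. The 6 Klf9 members changed by -0.02 to 1.11. The Rbpms members ranged more widely, from -0.13 to 1.55, as did those of Qk, an RNA-binding protein gene, from -0.94 to 1.38. Differences between enhancers of one gene were not tested, and the SE per enhancer was 0.42 to 0.58 among these.

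The 5 largest falls were at Chd9, Etv6, Ric8b, Tead4 and Lifr. The intronic Chd9 enhancer, in a gene for a chromatin remodeller, had 4.15, 3.90, 2.03 and 0.527 RPKM, where the last value is a single read, and fell by 1.84 ± 0.60 (SE) on the log2 scale (limma, adjusted p = 0.0258). This call was lost with voom (-1.34, adjusted p = 0.0581) and without uninduced 1 (-1.79, limma, adjusted p = 0.112). The Etv6 enhancer, 48384 bp upstream of an ETS factor gene, had 6.23, 9.03, 3.92 and 1.05 RPKM, and the Ric8b enhancer 7.61, 11.0, 1.74 and 4.74 RPKM. Chd9, Etv6, Ric8b and Lifr held octamer matches with at most 1 mismatch. Such matches were in 6 of all 12 members called lower (50%), near the 43.3% of all 950 members. They were in 18 of the 82 called higher (22.0%). The other falls called lay near Trim24, Adipor2, Ino80, Ssr2, Etl4, Itsn2 and Gm5089, named because they complete the 12. Of these the Ssr2 enhancer was the strongest, at 24.2, 39.0, 13.1 and 13.2 RPKM (limma, adjusted p = 0.0468).

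Among the 5 largest rises were enhancers at Csrp2, Prrc2b, Rel and Zfhx2, and all 5 had 1 to 3 reads in uninduced 1. Csrp2, which encodes a LIM-domain protein, had 0.692, 1.95, 4.64 and 6.85 RPKM at a window 360 bp from its start that overlaps an exon. The enhancer near Rel, which encodes an NF-κB subunit, had 1.04, 3.66, 6.24 and 10.5 RPKM. The Prrc2b and Zfhx2 enhancers had a single read in uninduced 1 and 10 and 22 reads in uninduced 2. In all 5 uninduced 1 was the lowest library, and no fold is given because of these low counts. Without uninduced 1 the calls at Prrc2b and Zfhx2 were lost (limma, adjusted p = 0.289 and 0.801).

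The composite examples other than Lifr had changes close to 0. The Cdc42ep3 enhancer had 5.53, 12.7, 8.42 and 9.49 RPKM, a change of 0.09 ± 0.42 (SE), and the weaker Ranbp17 enhancer 7.61, 9.76, 7.55 and 10.5 RPKM, a change of 0.05 ± 0.42. The Col14a1 enhancer (chr15:55268032-55268382) had 12.45, 16.8, 15.4 and 17.4 RPKM, a change of 0.17 ± 0.44. All 3 overlapped between conditions, and each change lay within 2 SE of the bound median of 0.76.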

How the data were processed

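The files held NANOG ChIP-seq values of 2 uninduced and 2 IAA libraries (0 and 500 μM IAA, grouped by the labels). Per the methods and the submitters' processing notes, the authors mapped reads with Bowtie2 2.3.4.3 onto GRCm38/mm10, removed duplicates, called NANOG peaks with MACS2 on both conditions together, and computed the deposited RPKM over windows on peak summits with DiffBind. Values were not scaled to a spike-in, so they are relative to each library's total reads. A further deposited table gave a mean RPKM per condition, used for the threshold of 0.9 RPKM, and TRUE or FALSE flags from published peak sets. 0 columns of other samples were present.

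All values were whole multiples of the smallest in a library within 0.01 reads (100%), which gave reads per window. Single windows were tested with limma 3.58.1 (R 4.3.3; two-sided moderated test with a trend of variance on level) on log2(RPKM + 0.1) over 16608 bound peaks, with an adjusted p threshold of 0.05. Classes were compared by an exact permutation test over libraries of the difference between library medians. Replicate numbers did not pair the libraries by the check given in the closing section. The members, gene lists and motifs were chosen with earlier results of these data known. Named enhancers were the strongest member nearest to each listed gene, the 5 strongest, the 5 largest rises and falls without overlap, and the windows next to the threshold, of which a few are not reported here. Positions are 1-based, annotation was GENCODE M21, and sequence was the RefSeq copy of GRCm38.p6. The scripts (Python 3.11.15, numpy 2.4.6, pandas 2.3.3, scipy 1.17.1, matplotlib 3.10.9) were tested on simulated data. Alternatives were pseudocounts of 0.01 and 0.5, quantile normalization, all windows, a 2 RPKM threshold, 2 or more reads, no variance trend, a replicate block, voom, clusters within 5 kb and leaving out each library. The octamer split at OCT4-free enhancers and the bins of GC content and level were added after the data were seen.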

Additional observations from a re-analysis of the deposited data

How the results depend on the processing

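The fall of the difference between co-bound and OCT4-free enhancers kept its direction under every alternative that could alter it, from -0.56 to -0.43. The rise of the difference from co-bound peaks outside the classes also kept its direction, from 0.05 to 0.21. No p over 4 libraries can go below 0.333, so these tests cannot pass 0.05 and say nothing of stability. Quantile normalization turned the median change at members to -0.22, and those of the named enhancers at Klf5 (-0.41), Esrrb (-0.13), Tfcp2l1 (-0.11), Fgf4 (-0.36), Tet2 (-0.39), Mycn (-0.49), Etv5 (-0.21), Stoml1 (-0.024), Col14a1 (-0.56), Cdc42ep3 (-0.61) and the weaker Ranbp17 enhancer (-0.65). It left 0 members called higher and 1 called lower, and dropping the variance trend left 0 and 0.

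The change tied to the exact octamer turned to -0.15 with 2 or more reads in every library, -0.22 with bound windows only and -0.32 with at most 1 mismatch. Of the 88 flagged windows with the exact octamer 23 lay under the threshold and are absent from the comparison of bound windows. That tied to clustering turned to 0.067 with 2 or more reads and 0.13 with bound windows only, and the cause was not tested. Leaving out each library in turn gave -0.077 to 0.19 for the octamer, -0.063 to 0.020 for clustering, 0 to 331 members called higher and 0 to 24 called lower. With a library left out, the lone library of its group is assumed to vary like the others. The single enhancers that changed sign ran from -0.10 to 0.073 at Sox2, -0.22 to 0.79 at Klf5, -0.075 to 0.35 at Tet2, -0.40 to 0.71 at Mycn, -0.042 to 0.39 at Col14a1, -0.50 to 0.68 at Cdc42ep3 and -0.19 to 0.29 at Ranbp17.

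The replicate numbers do not pair the libraries: deviations of same-numbered libraries from their group means correlated at 0.00546 over bound peaks. A fit with the replicate block called 125 members higher (13.2%) and 14 lower (1.47%), against 16.0% and 0.313% of all bound peaks. In this balanced layout the block cannot alter the difference between co-bound and OCT4-free enhancers, so its value of -0.50 was fixed in advance.

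Depth limits single enhancers most in IAA 2, where 1 read is worth 0.527 RPKM and 17 members sat at that level.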
